A study of Mus musculus with 4 samples.

Results

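*Tcf7*, *Lef1*, *Slamf6*, *Id2*, *Id3*, *Bach2*, *Foxo1* and *Satb1* are 8 regulators of T cell stemness and quiescence, chosen by symbol from the 13265 genes of a single-cell table and described here in all 5080 cells of that table. All 8 were present. Droplet-based 3′ scRNA-seq had been run on sorted YFP+CD4+ T cells of the small intestine in 4 samples, each pooled from mice 7 to 8 months of age. All groups carried the Il-17a-CRE strain, in which Cre follows the *Il17a* promoter, and a *Rosa26* stop-YFP reporter, so that YFP marks cells that had expressed *Il17a* at some time, and the TGFβR-WT controls carried the Cre as well. TGFβR-KO mice (1 sample) had floxed alleles of *Tgfbr2*, the type 2 TGFβ receptor, TGFβR-CA mice (1 sample) had a constitutively active form of *Tgfbr1*, the type 1 receptor, placed after a floxed stop cassette, and TGFβR-WT mice (2 samples) had neither. A first sequencing batch held TGFβR-KO and TGFβR-WT and a second held TGFβR-CA and TGFβR-WT, so that batch and condition cannot be told apart between TGFβR-KO and TGFβR-CA.

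TCF-1, the product of *Tcf7*, and LEF1 are HMG-box transcription factors that keep T cells in a self-renewing, less differentiated state and also favour the follicular helper (TFH) fate, and SLAMF6 is a surface receptor commonly used to mark TCF-1+ stem-like T cells. ID2 and ID3 lack a DNA-binding region of their own and hold E proteins away from DNA, ID2 being known for effector and tissue-resident T cells and ID3 for memory and follicular cells. BACH2 is a repressor of effector genes, FOXO1 is a factor of quiescence, survival and lymphoid homing that drives *Klf2*, *S1pr1* and *Il7r*, and SATB1 is a chromatin organizer of developing and resting T cells.

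The deposited names were taken for each cell, namely 1 of 3 conditions and 1 of 8 clusters. The table held 2975 cells labelled TGFβR-KO, 1098 labelled TGFβR-CA and 1007 labelled TGFβR-WT, and by their name suffixes the last formed 2 sets, the larger with 709 cells and the smaller with 298, neither of them tied to a TGFβR-WT sample. A barcode occurred in more than 1 set for 32 cells, 5 of them in the Migratory or TR-TFH clusters. A level is the corrected UMIs of a gene per 10000 corrected UMIs summed over a group of cells, and cells had a median of 3802.5 corrected UMIs (range 2955 to 5110). As the authors had set all cells to a common depth, the original depth is unknown. TGFβR-KO and TGFβR-CA had 1 pool each, and the TGFβR-WT cells could not be assigned to their 2 samples, so no test over samples was made, and clusters drawn from the same cells were not tested against each other. A gene was called higher or lower at a ratio of at least 1.5 times, where both groups had at least 20 cells and the gene had at least 20 corrected UMIs in them together. Ranges after shares of cells are 95% confidence limits (exact, Clopper-Pearson), and limits and floors reflect counting error alone, without the spread between mice. No cell type that should lack these genes was kept in the table, so the share that free RNA gives was not measured.

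The labels were checked first, and they were not borne out in every set. *Tgfbr1* had a level of 0.219 in cells labelled TGFβR-KO, 0.367 in the larger TGFβR-WT set, 2.79 in the smaller TGFβR-WT set and 0.792 in cells labelled TGFβR-CA, so the set with the active receptor was not the highest. Whether the transcript of the active form is counted as *Tgfbr1* is not given in the sources used here. *Tgfbr2* was at 1.48, 1.72, 1.76 and 1.78 in the same order, and the 3′ tags may lie outside its deleted part, in which case they check nothing. *Xist*, looked at after its values were seen, was at 0 in the cells labelled TGFβR-KO and in the larger set, and at 9.86 in the smaller set and 4.59 in the cells labelled TGFβR-CA. *Xist* follows the sex of the mice and does not check the receptor labels. The authors used mice of both sexes, and the part of sex in differences between these sets was not tested. Conditions are therefore named by the labels of the cells, both TGFβR-WT sets are given, and each direction drawn between conditions below rests on these labels.

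The cluster names were also compared with markers. The T cell marker list summed to 86.1 to 124 per 10000 in Migratory and TR-TFH cells, with no marker at 0. The 8 Migratory markers were each highest in that cluster in the cells labelled TGFβR-WT and TGFβR-CA, and 4 of 8 in those labelled TGFβR-KO. The authors also gave this cluster a stem cell-like signature with *Slamf6*, *Il7r* and *Tcf7*. *Tcf7* and *Slamf6*, as members, were left out of the marker list. Both were highest in TR-TFH cells and not in Migratory cells in each condition. Of the 4 TR-TFH markers, *Gpr183* and *Rflnb* were higher in TR-TFH than in the other clusters, whereas *Il7r* and *Itga4* were higher in Migratory cells in each condition. The names are therefore used as the authors' names for groups of cells.

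For orientation on the genome, *Tcf7* lies at chr11:52252371-52283014, *Lef1* at chr3:131110471-131224356, *Slamf6* at chr1:171917515-171953170 and *Id2* at chr12:25093799-25097140 (GENCODE vM21 on GRCm38, the mm10 build). *Id3* lies at chr4:136143497-136145755, *Bach2* at chr4:32238804-32586108, *Foxo1* at chr3:52268336-52353221 and *Satb1* at chr17:51736187-51833290. The windows upstream of the RefSeq starts (GRCm38.p6) of 3 members are shown, *Lef1* and *Slamf6* because their levels followed each other most closely of all member pairs, and *Id2* because its level ran opposite to that of *Tcf7*. The *Lef1* window is chr3:131110047-131110296 on the plus strand, before the most upstream of 4 annotated starts. The *Slamf6* window is chr1:171917212-171917461 on the plus strand. The *Id2* window is chr12:25096254-25096342 on the minus strand and stops at an exon of another transcript. Its 89 bases are the part of the 250 bases that lies furthest from the *Id2* start, and they do not adjoin that start. They lie within the annotated *Id2* gene. The 3 windows are written 5′ to 3′, and capitals mark GGCGCC, a motif bound by SMAD proteins, which carry the TGFβ signal.
Lef1: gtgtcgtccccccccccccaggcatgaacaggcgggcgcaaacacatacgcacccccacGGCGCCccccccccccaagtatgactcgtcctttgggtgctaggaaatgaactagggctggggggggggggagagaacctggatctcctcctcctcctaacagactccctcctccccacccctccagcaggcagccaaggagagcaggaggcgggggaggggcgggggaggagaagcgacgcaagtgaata
Slamf6: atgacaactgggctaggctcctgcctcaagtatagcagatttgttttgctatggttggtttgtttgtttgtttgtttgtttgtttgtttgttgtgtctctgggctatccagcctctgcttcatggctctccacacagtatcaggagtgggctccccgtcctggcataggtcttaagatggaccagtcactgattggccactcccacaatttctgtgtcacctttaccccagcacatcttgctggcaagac
Id2: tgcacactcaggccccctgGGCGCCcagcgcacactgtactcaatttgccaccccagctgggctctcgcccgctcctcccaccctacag
Motifs were searched on both strands in the 250 bases before each start. GGCGCC was present in 6 of 16 member windows, those of *Tcf7*, *Lef1*, *Id2* and *Satb1*, and in 9.59% of 32851 windows of all genes. Of the 16 windows, 5 belong to *Satb1* and 4 to *Lef1*, so they are not independent, and these shares were not tested. CTTTGA, a core of TCF/LEF sites, was present in 2 of 16 member windows (*Lef1* and *Bach2*) and 13.8% of all. CTTTGT, the other TCF/LEF core searched, was in 3 of 16 (*Lef1* and *Satb1*) and 16.5% of all, and GTAAACA, a forkhead core, in 0 of 16 and 3.17% of all. Of the 3 windows printed, only those of *Lef1* and *Id2* held a searched motif, GGCGCC in each, and the *Slamf6* window held none of the 4. A match is a string of letters and not a measured site.

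Migratory cells had less *Tcf7* than TR-TFH cells in each of the 3 conditions. The Migratory level of *Tcf7* was 0.933 in cells labelled TGFβR-KO, followed by 1.22 in the larger TGFβR-WT set and by 1.68 in cells labelled TGFβR-CA. In TR-TFH cells it was 1.62, 2.61 and 3.40 in the same order, and 2.24 in the smaller TGFβR-WT set. All 3 Migratory values that could be read lay below their own TR-TFH value, although the Migratory value of the cells labelled TGFβR-CA was above the TR-TFH value of those labelled TGFβR-KO. The ratio was 1.74-fold lower in cells labelled TGFβR-KO, 1.87-fold lower in the pooled TGFβR-WT cells and 2.03-fold lower in cells labelled TGFβR-CA (log2 −0.80, −0.91 and −1.02). The smaller TGFβR-WT set had 16 Migratory cells and gave no ratio of its own.

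The share of cells with *Tcf7* moved the same way as its level. In cells labelled TGFβR-KO it was 30.4% (27.3 to 33.7) in Migratory and 40.7% (36.4 to 45.0) in TR-TFH. In cells labelled TGFβR-WT it was 36.0% (26.1 to 46.8) and 53.5% (48.8 to 58.1), and in those labelled TGFβR-CA 40.4% (27.0 to 54.9) and 66.5% (62.5 to 70.5). With TGFβR-WT taken as pooled cells, the intervals of Migratory and TR-TFH did not overlap in any condition. This is no test, as the clusters were drawn from the same cells and cells of a pool are not replicates. In the smaller TGFβR-WT set alone, *Tcf7* was found in 50% of 16 Migratory cells and 51.1% of TR-TFH cells.

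*Slamf6* was lower in Migratory cells than in TR-TFH cells as well, past 1.5 times in the cells labelled TGFβR-KO and the pooled TGFβR-WT cells. Its level was 1.37 against 2.44 in cells labelled TGFβR-KO and 1.52 against 3.28 in the larger TGFβR-WT set (log2 −0.83, and −0.84 in the pooled TGFβR-WT cells). In cells labelled TGFβR-CA the level was 1.58 against 2.16, a log2 ratio of −0.44 that was not called. The shares of cells with *Slamf6* were 36.2% and 55.7% in those labelled TGFβR-KO, 44.9% and 62.2% in the pooled TGFβR-WT cells, and 44.2% and 52.0% in those labelled TGFβR-CA. The smaller TGFβR-WT set had 16 Migratory cells, too few for a call. There the level was 2.81 against 2.94, and the shares were 81.25% and 62.4%, the opposite direction.

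*Lef1* was not called in any of the 3 conditions, with TGFβR-WT taken as pooled cells. The level was 1.18 in Migratory against 1.71 in TR-TFH cells labelled TGFβR-KO, 1.42 against 2.09 in the pooled TGFβR-WT cells and 1.96 against 1.55 in cells labelled TGFβR-CA. Taken alone, the larger TGFβR-WT set had 1.26 against 2.20, which is 1.75-fold lower and past the threshold. The smaller set, with 16 Migratory cells and too few for a call, went the opposite way at 2.07 against 1.85. *Lef1* was thus higher in Migratory cells of those labelled TGFβR-CA (log2 0.34). It was lower in those labelled TGFβR-KO (−0.53) and in the pooled TGFβR-WT cells (−0.56). The Migratory share with *Lef1* in cells labelled TGFβR-CA, 53.8%, came from 52 cells.

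*Id2* ran the other way, and was called in 1 condition with TGFβR-WT taken as pooled cells. Its level was 13.5 in Migratory and 5.63 in TR-TFH cells labelled TGFβR-KO, which is 2.40-fold higher (log2 1.27). In the larger TGFβR-WT set it was 8.76 against 5.57, and in cells labelled TGFβR-CA 3.07 against 2.13. The larger set alone was past the threshold, at 1.57 times, whereas the 16 Migratory cells of the smaller set went the opposite way, at 1.78 against 3.85. The ratios of 1.47 in the pooled TGFβR-WT cells and 1.44 in those labelled TGFβR-CA fell short of 1.5. *Id2* was found in 93.4% of Migratory and 61.3% of TR-TFH cells labelled TGFβR-KO, 76.4% and 55.2% of those labelled TGFβR-WT, and 40.4% and 37.8% of those labelled TGFβR-CA. The median Migratory cell held 5 corrected UMIs of *Id2* (quartiles 2 to 8) in cells labelled TGFβR-KO, 2 (1 to 5) in the larger TGFβR-WT set and 0 (0 to 1) in those labelled TGFβR-CA.

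*Foxo1* and *Satb1* differed little between the clusters. *Foxo1* was at 1.15 in Migratory and 1.14 in TR-TFH cells labelled TGFβR-KO, 1.96 and 1.70 in the larger TGFβR-WT set, and 1.35 and 1.30 in cells labelled TGFβR-CA. *Satb1* was at 2.78 and 2.68, 2.25 and 2.40, and 1.07 and 0.998 in the same order, so its Migratory and TR-TFH values were close within each set while both were lower in the cells labelled TGFβR-CA. With TGFβR-WT taken as pooled cells, the log2 ratios of this pair of genes lay between −0.10 and 0.13, and the larger set alone gave 0.20 for *Foxo1*. *Bach2*, found in 5.58% to 10.7% of cells of either cluster, was at 0.259 against 0.342 in cells labelled TGFβR-KO, 0.266 against 0.392 in the pooled TGFβR-WT cells and 0.233 against 0.165 in cells labelled TGFβR-CA, and was not called in these. Taken alone, the larger TGFβR-WT set had 0.222 against 0.428, which is 1.93-fold lower and past the threshold. The smaller set, with 16 Migratory cells and too few for a call, went the opposite way at 0.444 against 0.318. *Id3* had 28 corrected UMIs in 28 of all 5080 cells and was too low to be read, with 3 of 831 Migratory cells and 3 of 519 TR-TFH cells above 0 in those labelled TGFβR-KO. In the cells labelled TGFβR-WT it was found in 0 of 89 Migratory cells, which, by the limit of 3 counts, allows a share of cells with a UMI of up to 3.37%.

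In counts, 7 of the 8 members could be read in each condition. In cells labelled TGFβR-KO, 1 was higher in Migratory cells (*Id2*) and 2 were lower (*Tcf7* and *Slamf6*), where 14.1% of 7457 genes were higher and 7.43% lower. In cells labelled TGFβR-WT, 0 were higher and 2 lower (*Tcf7* and *Slamf6*), against 15.5% and 15.4% of 7204 genes. In cells labelled TGFβR-CA, 0 were higher and 1 lower (*Tcf7*), against 16.3% and 19% of 7093 genes. Of all genes read, 4.22%, 8.73% and 9.38% had a lower log2 ratio than *Tcf7* in the 3 conditions, and 96.4%, 83.5% and 81.6% had a lower one than *Id2*. *Slamf6* had 3.84%, 9.79% and 24.4% of genes below it. The median log2 ratio of all genes was 0.10, 0.02 and −0.01.

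**Figure D1:**
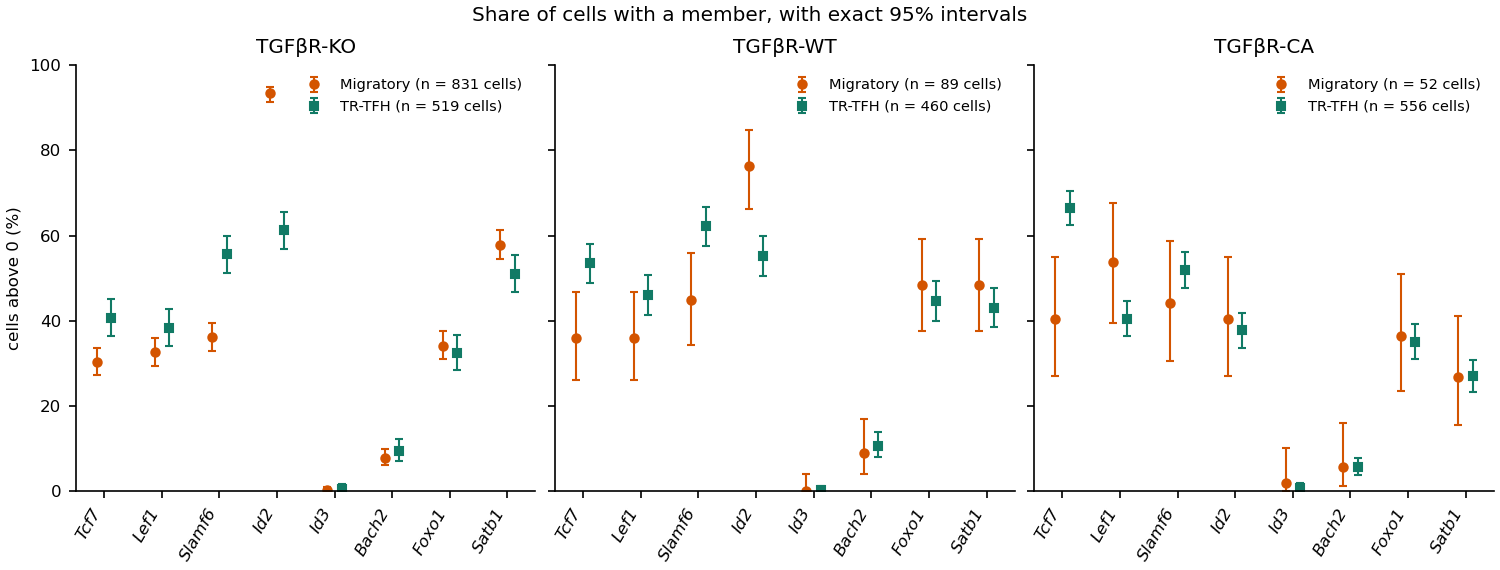
Share of cells above 0 (percent, y axis) for each member in Migratory and TR-TFH cells of the 3 conditions. Points are shares and bars exact 95% confidence intervals over cells. *Tcf7* sits lower in Migratory than in TR-TFH cells in all 3 panels, and *Id2* reaches 93.4% in Migratory cells labelled TGFβR-KO.

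**Figure D2:**
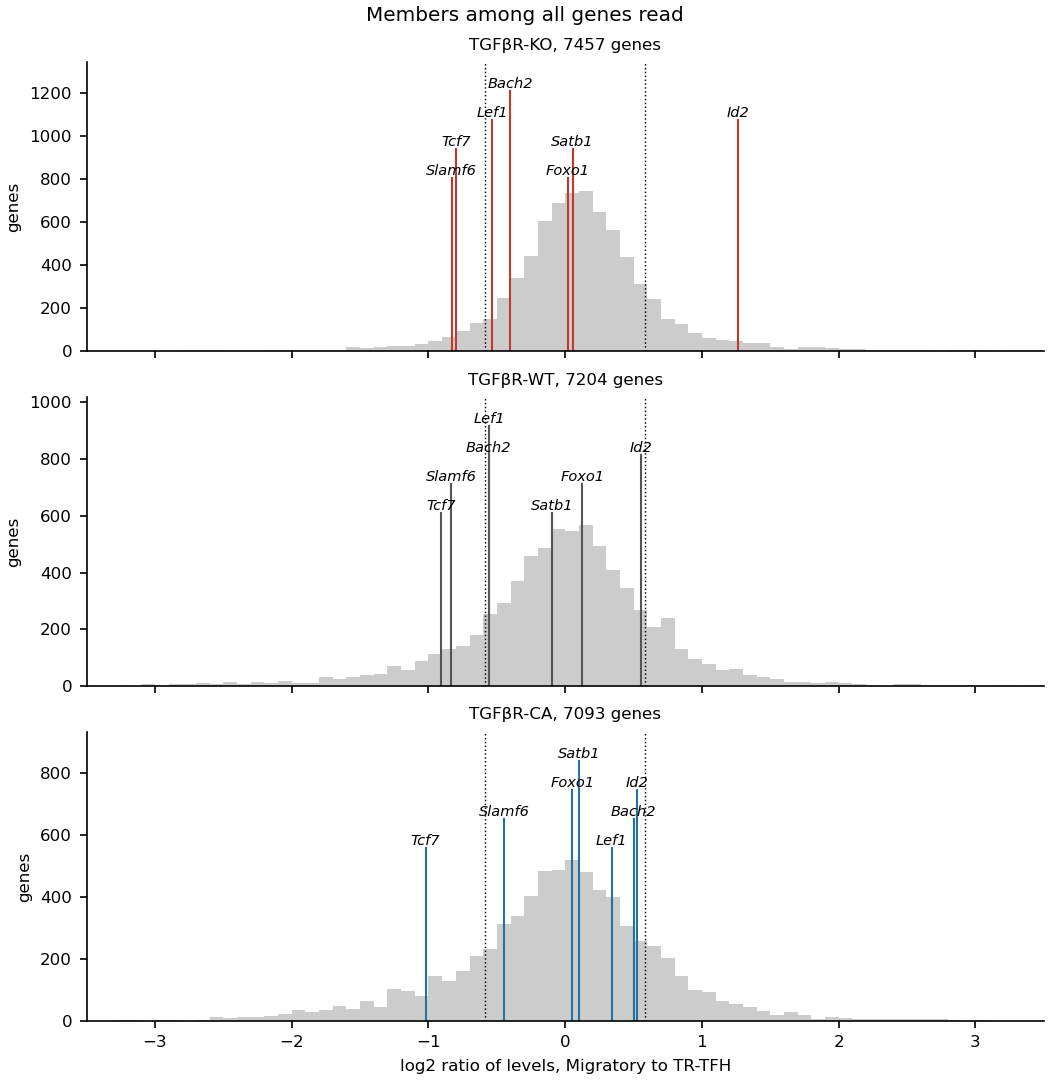
Number of genes (y axis) by log2 ratio of Migratory to TR-TFH level (x axis, shown from −3.5 to 3.5) in the 3 conditions, with the members as lines and a ratio of 1.5 times in either direction as dotted lines (the height of a member's line carries no value). *Tcf7* lies left of the lower dotted line in all 3 panels, and *Id2* lies right of the upper one only in cells labelled TGFβR-KO.

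Among clusters with at least 20 cells, the highest *Tcf7* was in TR-TFH cells and the next in GC-TFH cells, the second TFH cluster, in all 4 sets. The GC-TFH level was 1.25, 1.54, 1.45 and 2.44 in cells labelled TGFβR-KO, the larger set, the smaller set and cells labelled TGFβR-CA. The Activated cluster had 0.588, 0.342, 0 and 0.338, the 0 being 0 of 29 cells, which by the same limit of 3 counts allows a share of cells with a UMI of up to 10.3%. Pre-tumorigenic cells had 0.540, 0.549, 0.446 and 1.88, so the cells labelled TGFβR-CA stood above the other 3 sets there. The Tumorigenic and CTL clusters had 20 cells or more only in the cells labelled TGFβR-KO, with *Tcf7* at 0.510 and 0.554.

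*Slamf6* had a wider range over clusters than *Tcf7* or *Lef1* in the cells labelled TGFβR-KO. In cells labelled TGFβR-KO it went from 2.44 in TR-TFH to 0.163 in Tumorigenic cells, a 15.0-fold range, with 6.37% of Tumorigenic cells above 0. *Lef1* went from 1.71 in TR-TFH to 0.299 in Pre-tumorigenic cells labelled TGFβR-KO. Pre-tumorigenic cells varied among sets, with *Lef1* at 1.10 in the larger and 0.149 in the smaller TGFβR-WT set, of 27 and 52 cells.

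*Id2* was highest in Activated cells of 3 sets, and in the larger TGFβR-WT set Activated and Pre-tumorigenic cells were level. The Activated values were 22.3 in those labelled TGFβR-KO, 13.9 in the larger and 10.4 in the smaller TGFβR-WT set, and 8.60 in those labelled TGFβR-CA. The CTL cluster of cells labelled TGFβR-KO came next at 20.2, and their shares with *Id2* were 93.1% in CTL and 93.4% in Migratory cells. GC-TFH cells were the lowest of the clusters with 20 cells, at 4.77, 2.51, 1.99 and 1.06. *Foxo1* was highest in Tumorigenic cells of those labelled TGFβR-KO, at 1.66, and lowest in their Cycling cells, at 0.496. *Satb1* was higher in their Tumorigenic cells (2.32) than in their CTL cells (1.07). *Bach2* in those labelled TGFβR-KO ranged from 0.349 in GC-TFH to 0.0620 in Cycling cells.

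**Figure D3:**
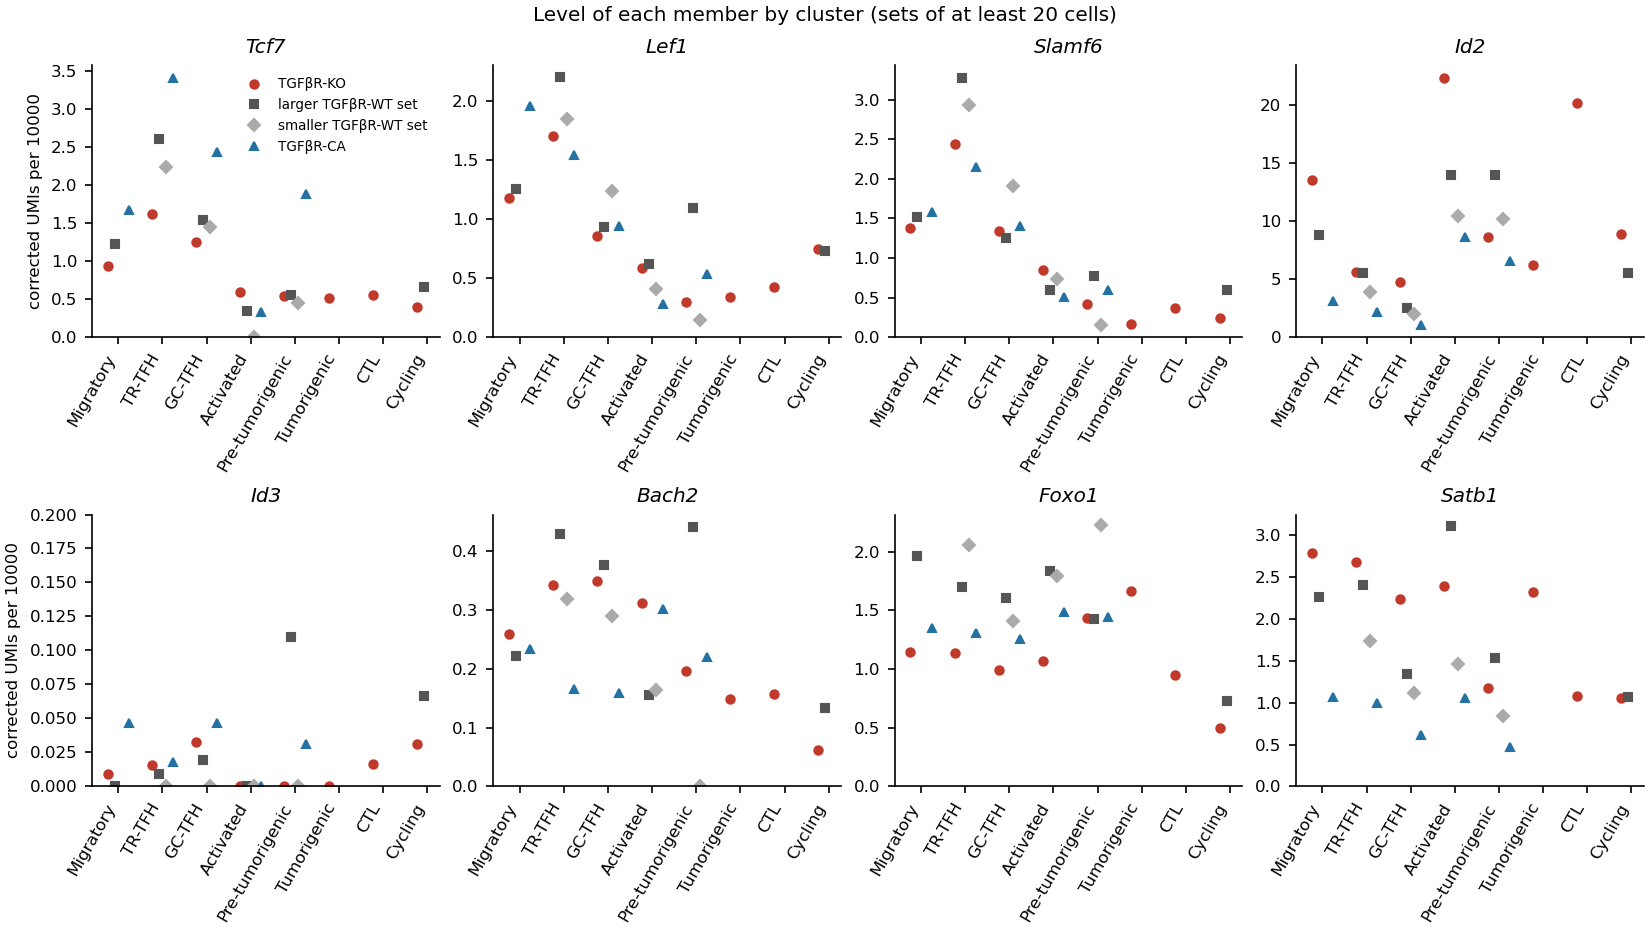
Level per 10000 corrected UMIs (y axis) of each of the 8 members by cluster (x axis), for the cells labelled TGFβR-KO, both TGFβR-WT sets and the cells labelled TGFβR-CA, where a group had at least 20 cells. *Tcf7*, *Lef1* and *Slamf6* are low in Activated cells, where *Id2* reaches 22.3.

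The *Id2* to *Tcf7* ratio, a measure chosen after the levels were seen, set the clusters apart. The levels are 3′ tags that are not divided by gene length, so the ratio is compared only between groups of cells. It was 14.5 in Migratory and 3.47 in TR-TFH cells labelled TGFβR-KO, 5.53 and 2.01 in those labelled TGFβR-WT, and 1.83 and 0.626 in those labelled TGFβR-CA. With TGFβR-WT taken as pooled cells, both clusters thus ran in the same order of conditions, from TGFβR-KO to TGFβR-CA. In the 16 Migratory cells of the smaller TGFβR-WT set, *Id2* and *Tcf7* were both at 1.78, which does not keep that order. GC-TFH cells followed that order at 3.81, 1.55 and 0.437. Activated cells had 38.0, 52.4 and 25.4 and Pre-tumorigenic cells 15.9, 23.8 and 3.48, where the cells labelled TGFβR-WT were highest.

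**Figure D4:**
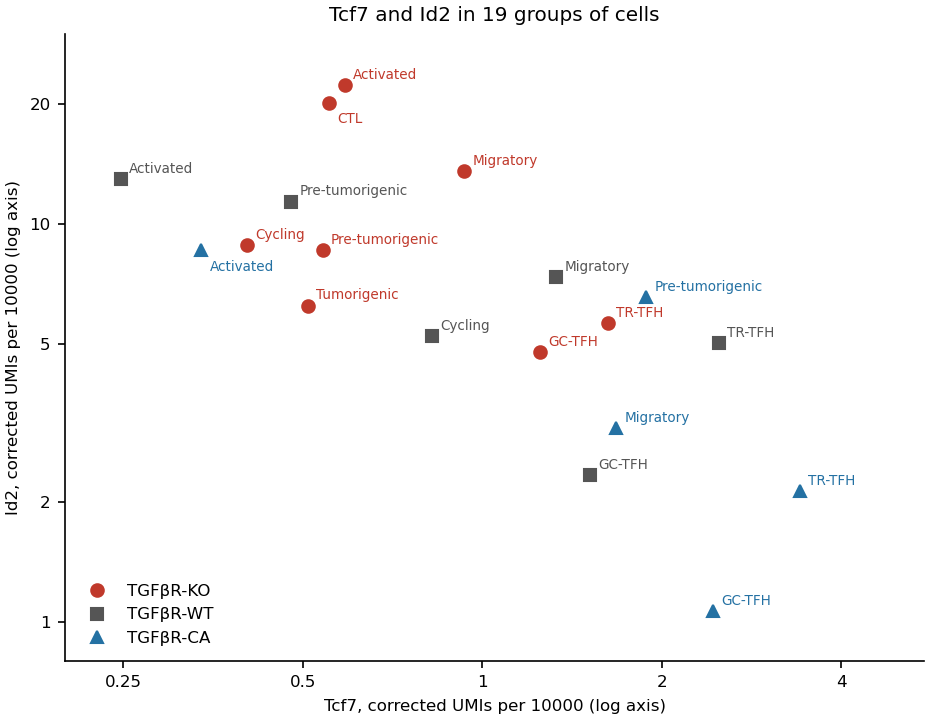
*Id2* level (y axis, log scale) against *Tcf7* level (x axis, log scale), both per 10000 corrected UMIs, in the 19 groups of cells with at least 20 cells. TFH groups lie towards high *Tcf7* and low *Id2*, and Activated groups towards the opposite corner.

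Over these 19 groups the Spearman correlation of levels was 0.79 for *Tcf7* and *Slamf6*, 0.74 for *Tcf7* and *Lef1*, 0.88 for *Lef1* and *Slamf6* and −0.71 for *Tcf7* and *Id2*. *Slamf6* and *Bach2* had 0.69 and *Foxo1* and *Satb1* 0.04. The groups share libraries and their clusters were drawn from the same expression values, so these are descriptions. Among 7489 other genes, those with levels most like *Tcf7* were *Rps29* (0.93), *Cd9* (0.91) and *Aff3* (0.89). *Lef1* was followed most closely by *Aff3* (0.89), *Actn1* (0.89) and *Slamf6* (0.88), and *Slamf6* by *Rflnb* (0.94), *Aff3* (0.89) and *Lef1* (0.88). *Aff3* thus stood among the closest 3 of all 3 genes.

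For *Id2* the closest genes were *Tmem154* (0.92), *Tpst2* (0.91) and *Cxcr6* (0.91), the last a receptor of tissue-resident T cells. For *Foxo1* they were *Chd2* (0.91), *Arhgap31* (0.85) and *Jmjd1c* (0.85), and for *Satb1* *Use1* (0.86), *Tpt1* (0.83) and *Rpl10-ps3* (0.81), a ribosomal protein pseudogene whose reads may be shared with its parent gene. The sparser genes had lower values, with *Kantr* (0.80), *Gm42722* (0.77) and *Mbd1* (0.77) for *Bach2* and *Nrf1* (0.81), *Heg1* (0.76) and *Tubb5* (0.75) for *Id3*.

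Within single cells, *Tcf7*, *Lef1* and *Slamf6* were counted together, a count chosen after the levels were seen. At least 2 of the 3 were found in 26.6% (23.6 to 29.7) of Migratory and 42.2% (37.9 to 46.6) of TR-TFH cells labelled TGFβR-KO. In cells labelled TGFβR-WT the shares were 32.6% (23.0 to 43.3) and 54.6% (49.9 to 59.2), and in those labelled TGFβR-CA 44.2% (30.5 to 58.7) and 53.2% (49.0 to 57.4). The intervals were apart in the cells labelled TGFβR-KO and TGFβR-WT and overlapped in those labelled TGFβR-CA, which again is no test of the clusters. None of the 3 was found in 32.0% of Migratory and 17.7% of TR-TFH cells labelled TGFβR-KO, and in 72.9% of their Tumorigenic cells.

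Pairs of members occurred in the same cells about as often as the product of their shares gives. In Migratory cells labelled TGFβR-KO, 4 of 21 pairs lay above the product with an interval that left it out. *Tcf7* and *Slamf6* were together in 111 cells where the product gives 91.6, *Slamf6* and *Satb1* in 209 where it gives 174, *Slamf6* and *Bach2* in 35 where it gives 23.5, and *Bach2* and *Foxo1* in 34 where it gives 22.2. In the other sets of Migratory and TR-TFH cells with at least 20 cells, the interval held the product for every pair counted.

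The clusters that held the cells with *Tcf7* are given beside the clusters of all cells. Of such cells labelled TGFβR-KO, 31.9% were Migratory and 26.6% TR-TFH, where these clusters held 27.9% and 17.4% of all cells. Of those labelled TGFβR-WT, 8.21% were Migratory and 63.1% TR-TFH, against 8.84% and 45.7% of all cells. Of those labelled TGFβR-CA, 3.56% were Migratory and 62.7% TR-TFH, against 4.74% and 50.6%.

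The conditions were then compared within each cluster, where a call needed at least 1.5 times in the same direction against each TGFβR-WT set with 20 cells or more. In Migratory and Cycling cells only the larger TGFβR-WT set had 20 cells. The cells labelled TGFβR-KO had more *Id2* than the cells labelled TGFβR-WT in 4 of the 6 clusters read, namely Migratory, GC-TFH, Activated and Cycling, and the cells labelled TGFβR-CA had less *Id2* in 4 of 5 and more *Tcf7* in 2 of 5. The Migratory and Cycling calls in cells labelled TGFβR-KO, and the Migratory call in cells labelled TGFβR-CA, rest on the larger TGFβR-WT set alone. These directions rest on labels that *Tgfbr1* did not bear out, and some of them on sets that differed in *Xist*.

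In Migratory cells, the level of *Id2* was 13.5 in those labelled TGFβR-KO against 8.76 in the larger TGFβR-WT set, a ratio of 1.55. *Foxo1* was lower, at 1.15 against 1.96, a ratio of 0.587. So 1 member was higher and 1 lower in Migratory cells, where 11.3% of genes were higher and 17.5% lower. In the cells labelled TGFβR-CA, *Lef1* was higher at 1.96 against 1.26 (ratio 1.56), and *Id2* (ratio 0.351) and *Satb1* (ratio 0.475) were lower, where 10.5% of genes were higher and 18.5% lower. Against the 16 Migratory cells of the smaller TGFβR-WT set, which were too few for a call, the ratios for cells labelled TGFβR-CA were 1.73 for *Id2*, the opposite direction, 0.905 for *Satb1* and 0.944 for *Lef1*.

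In TR-TFH cells no member was called between the cells labelled TGFβR-KO and TGFβR-WT, where 1.6% of genes were higher and 7.8% lower. The cells labelled TGFβR-CA had 3 lower members and 0 higher, against 3.89% of genes lower and 1.75% higher. *Id2* was at 2.13 against 5.57 and 3.85 in the TGFβR-WT sets (ratios 0.383 and 0.554), *Satb1* at 0.998 against 2.40 and 1.74 (ratios 0.416 and 0.574) and *Bach2* at 0.165 against 0.428 and 0.318 (ratios 0.385 and 0.518). *Tcf7* was at 3.40 against 2.61 and 2.24, which did not reach 1.5 times against the larger set.

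GC-TFH cells had the most calls. In those labelled TGFβR-KO, *Id2* was 1.90 times the larger and 2.40 times the smaller set and *Satb1* 1.66 and 2.0 times, with no member lower, where 2.93% of genes were higher and 5.01% lower. In those labelled TGFβR-CA, *Tcf7* was higher at 1.58 and 1.68 times, where 3.11% of genes were higher. *Id2* (0.423 and 0.536), *Satb1* (0.458 and 0.551) and *Bach2* (0.422 and 0.548) were lower there, where 3.78% of genes were lower.

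In Activated cells labelled TGFβR-KO, *Id2* was 1.60 and 2.14 times and *Bach2* 2.0 and 1.91 times the larger and smaller sets, and *Foxo1* was lower at 0.583 and 0.598 times. There 3.56% of genes were higher and 7.84% lower. No member was called in Activated cells labelled TGFβR-CA, where 3.52% of genes were higher and 4.44% lower. In Pre-tumorigenic cells no member was called in those labelled TGFβR-KO, against 5.52% of genes higher and 10.2% lower. In those labelled TGFβR-CA, *Tcf7* was 3.43 and 4.22 times the sets labelled TGFβR-WT, where 5.17% of genes were higher, and *Id2* (0.470 and 0.642) and *Satb1* (0.306 and 0.558) were lower, where 6.66% of genes were lower. In Cycling cells labelled TGFβR-KO, *Id2* was higher (ratio 1.61) and *Tcf7* lower (ratio 0.606), where 16.6% of genes were higher and 11.4% lower.

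Altogether, 6 of 38 pairs of a member and a cluster were higher and 3 lower in cells labelled TGFβR-KO, and 3 of 31 were higher and 10 lower in cells labelled TGFβR-CA. The last comprised *Id2* and *Satb1* in 4 clusters each and *Bach2* in 2. By cluster, 1.6% to 16.6% of all genes were higher and 5.01% to 17.5% lower in cells labelled TGFβR-KO. In cells labelled TGFβR-CA these shares were 1.75% to 10.5% and 3.78% to 18.5%, and the counts were not tested against them. Both comparisons share the TGFβR-WT cells. The TGFβR-WT sets also differed from each other, and with equal weight on 4 clusters *Bach2* was 1.82 times, *Satb1* 1.62 times, *Id2* 1.36 times, *Lef1* 1.33 times and *Tcf7* 1.22 times as high in the larger as in the smaller set.

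**Figure D5:**
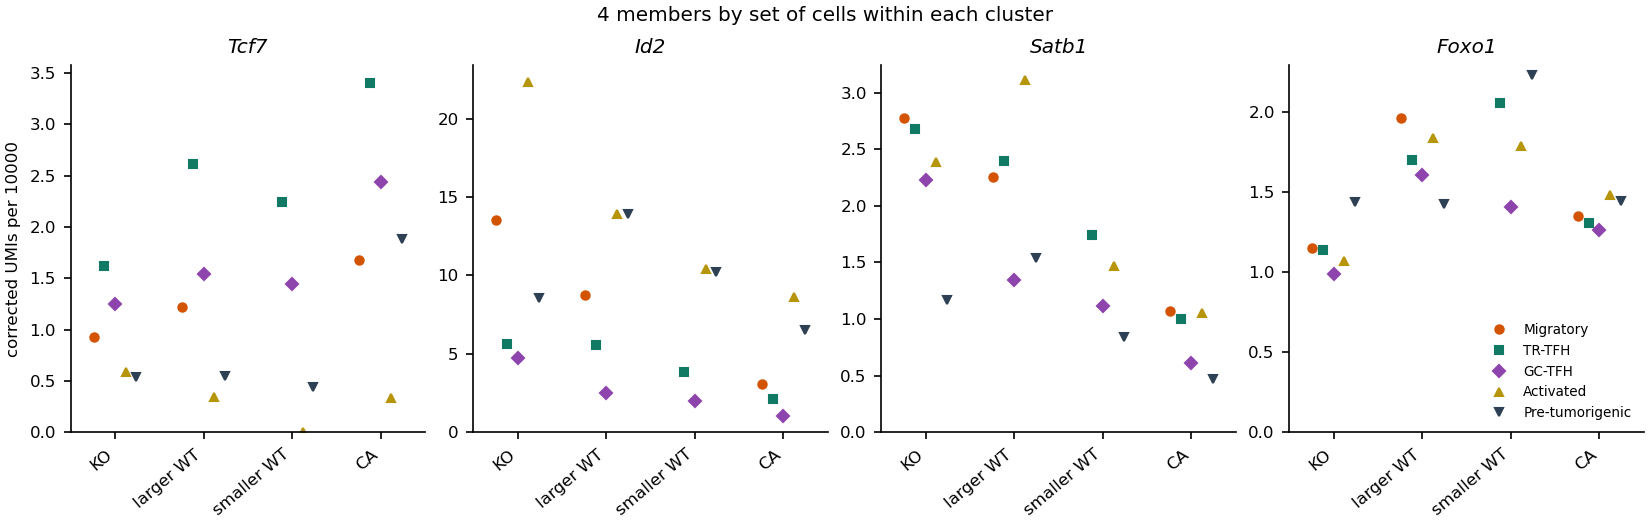
Level per 10000 corrected UMIs (y axis) of *Tcf7*, *Id2*, *Satb1* and *Foxo1* in each set of cells (x axis), 1 point for each of 5 clusters with at least 20 cells in that set. Cells labelled TGFβR-CA lie lowest for *Satb1* in all 5 clusters and highest for *Tcf7* in 4 of them, all but Activated.

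Ratios over all cells were set beside ratios at equal weights of clusters, a choice made after the levels were seen. Over all cells, *Tcf7* was at 0.909 in those labelled TGFβR-KO, 1.73 in the larger and 1.52 in the smaller TGFβR-WT set, and 2.55 in those labelled TGFβR-CA. The ratio to the pooled TGFβR-WT cells was 0.548 for TGFβR-KO over all cells and 0.846 when TR-TFH, GC-TFH, Activated and Pre-tumorigenic cells were given equal weight, and for TGFβR-CA it was 1.54 and 1.70. *Slamf6* went from 0.570 to 0.903 and *Id2* from 1.86 to 1.30 for TGFβR-KO, so both lay nearer 1 at equal weights. For TGFβR-CA the ratios were 0.492 and 0.579 for *Id2* and 0.464 and 0.437 for *Satb1*. *Foxo1* was at 0.675 and 0.647 for TGFβR-KO, nearly the same either way.

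Genes related to the members were counted from lists that leave the members out. Of the stem-like and memory T cell genes, 16 of 20 were read in each condition, of which 3, 4 and 3 were higher in Migratory than in TR-TFH cells and 10, 10 and 8 lower, in cells labelled TGFβR-KO, TGFβR-WT and TGFβR-CA, with median log2 ratios of −1.81, −1.18 and −0.80. For these and the lists that follow, the shares of all genes are those given above, 14.1%, 15.5% and 16.3% higher and 7.43%, 15.4% and 19% lower, and no list was tested against them. Among them *Cxcr5*, the follicle-homing receptor, was at 0.0152 against 0.617 in cells labelled TGFβR-KO, 0.0887 against 1.02 in those labelled TGFβR-WT and 0.0932 against 1.18 in those labelled TGFβR-CA. *Bcl6*, the factor of TFH fate, was at 0.107 against 0.560, 0.237 against 0.682 and 0.0932 against 0.723, and *Il6st*, the shared receptor chain of IL-6, at 0.128 against 0.762, 0.148 against 1.10 and 0.279 against 0.860. *S1pr1*, which guides exit from tissue, went the other way at 2.62 against 0.773, 3.87 against 0.694 and 2.84 against 0.517. The lower genes of this list thus included genes of the TFH fate, and *S1pr1* and *Il7r* are also Migratory markers.

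The quiescence genes had calls in both directions. Of 18, 17 and 18 read, 4, 5 and 3 were higher and 1, 3 and 2 lower, with medians of −0.08, 0.09 and −0.02. *Klf2*, a quiescence and trafficking factor, was at 10.5 in Migratory against 1.75 in TR-TFH cells labelled TGFβR-KO, 9.11 against 0.646 in those labelled TGFβR-WT and 7.69 against 0.407 in those labelled TGFβR-CA. *Tsc22d3* was at 0.847 against 0.363, 1.06 against 0.362 and 1.54 against 0.389, and *Tob1*, a brake on proliferation, at 0.402 against 0.197, 0.414 against 0.205 and 0.140 against 0.0915.

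Of the FOXO1 target genes, 9 were read, with 4, 5 and 6 higher and 2, 1 and 1 lower and medians of 0.05, 0.64 and 0.85, while the log2 ratio of *Foxo1* itself was at most 0.13 with TGFβR-WT pooled and 0.20 in the larger set. This list holds *Klf2*, *S1pr1* and *Il7r*, which are Migratory markers as well. *Il7r*, the IL-7 receptor chain, was at 13.3 against 5.42, 14.4 against 6.94 and 8.10 against 4.50, and *Bcl2l11*, which encodes the death factor BIM, at 0.451 against 0.280, 0.828 against 0.314 and 0.466 against 0.275. Of the effector genes, 8 of 13, 5 of 9 and 4 of 7 were higher and 0, 2 and 1 lower. *Runx3*, a factor of effector and tissue-resident T cells, was at 1.74 against 0.965, 2.04 against 0.567 and 1.44 against 0.284. *Rora* and *Bhlhe40* were higher in Migratory cells of each condition too, at 4.56 against 1.92 and 0.783 against 0.130 in those labelled TGFβR-KO.

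Partners of the members had few calls. Of the TCF-1 and LEF1 cofactors, 1 of 10, 2 of 10 and 1 of 9 were higher and 0, 1 and 0 lower, with medians of 0.03, 0.09 and −0.09. Of the E proteins and other Id genes, 2 were read, and 1 was called in 1 condition, *Tcf12*, lower in Migratory cells labelled TGFβR-CA and named after its value was seen.

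Markers of other cells were low or varied beside these results. The B cell, epithelial, myeloid, CD8 and γδ T cell lists each summed to at most 0.279 per 10000 in Migratory and TR-TFH cells of each set, the highest being the B cell list in Migratory cells labelled TGFβR-CA, with *Cd79a* and *Ms4a1* at 0. The regulatory T cell list, *Foxp3* and *Ikzf2*, summed to 0.665 to 1.44 in Migratory and 1.64 to 4.14 in TR-TFH cells, with *Foxp3* at 0 in both clusters of those labelled TGFβR-CA. This list was higher in TR-TFH cells, as *Tcf7* was, and its part in that result was not tested. The naive T cell list, which includes *Lef1*, summed to 9.83 to 12.3 in Migratory cells, with *Igfbp4* at 0 in each set.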

How the data were processed

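Droplet-based 3′ scRNA-seq of YFP+CD4+ T cells was deposited as 1 table with a condition and a cluster name for each cell. According to the submitters' processing notes, reads were counted with Cell Ranger 3.1.0 on mm10. The authors filtered cells (1000 to 5000 genes, mitochondrial share under 10%), applied SCTransform, integrated over 3000 features, used 10 dimensions and resolution 0.5 for clustering, and took out epithelial and γδ T cells. How doublets were treated is not given in the sources used here, and no doublet caller was run on the corrected values. One alternative left out the 2% of cells with the most detected genes. Each deposited value is a natural log, taken by the authors after adding 1 to a UMI number corrected by SCTransform. All 7880276 values above 0 were whole within 1e-06 once the log was undone. The total of corrected UMIs was 11479720 for TGFβR-KO, 3719565 for TGFβR-WT and 4382832 for TGFβR-CA. A count model was not used on corrected values. They carry no original depth, and the number of pools limits the precision.

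Cells named R: were taken as TGFβR-KO because their number is the one the study's methods give for it, and cells named WT: and RCA: as TGFβR-WT and TGFβR-CA. Levels were compared as ratios, over 7490 genes with at least 200 corrected UMIs, and genes at 0 in either group were left out. Likeness was the Spearman correlation of log2(level + 0.1). Named were all members, the 3 genes most like each, and up to 4 genes of each list past 1.5 times in the same direction in all 3 conditions. Some list genes are not reported here. The members and lists were chosen with earlier results of these data known. The *Id2* to *Tcf7* ratio, the count of *Tcf7*, *Lef1* and *Slamf6* in a cell, the equal weights of clusters and the rows of *Tgfbr1*, *Tgfbr2* and *Xist* were added after the data were seen. Alternatives were other measures of level, other sets of cells, names taken from 20 neighbours, each TGFβR-WT set alone, and other minimums and folds for all genes. The ratio and its call were tested on simulated data. Python 3.11.15, numpy 2.4.6, pandas 2.3.3, scipy 1.17.1, scikit-learn 1.9.0 and matplotlib 3.10.9 were used.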

Additional observations from a re-analysis of the deposited data

Results flagged for a closer look

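In 3 members the ratio of Migratory to TR-TFH cells had opposite signs in different conditions. These differences were not tested, since TGFβR-KO and TGFβR-CA are 1 pool each and the TGFβR-WT cells were not assigned to their samples, and the conditions are those of the cell labels. For *Lef1* the log2 ratio in cells labelled TGFβR-CA was above that in cells labelled TGFβR-KO by 0.87 and above that in cells labelled TGFβR-WT by 0.90. For *Bach2* it was above them by 0.90 and 1.06, and rested on 5 corrected UMIs in 3 of the 52 Migratory cells labelled TGFβR-CA. These differences take the TGFβR-WT cells as pooled. In the smaller TGFβR-WT set, with 16 Migratory cells, the log2 ratios were 0.16 for *Lef1* and 0.48 for *Bach2*. Their sign was that of the cells labelled TGFβR-CA. For *Satb1* the difference was −0.15 for TGFβR-WT minus TGFβR-KO and 0.20 for TGFβR-CA minus TGFβR-WT, and no ratio of *Satb1* was past 1.5 times.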

How the results depend on the processing

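*Tcf7* was lower in Migratory than in TR-TFH cells under every alternative that gave a value, with log2 ratios of −0.85 to −0.42 in cells labelled TGFβR-KO, −1.21 to −0.57 in those labelled TGFβR-WT and −1.12 to −0.72 in those labelled TGFβR-CA. *Slamf6* kept its direction too, at −0.86 to −0.62, −1.25 to −0.47 and −0.55 to −0.23, and *Id2* was higher at 0.61 to 1.70, 0.47 to 0.94 and 0.10 to 0.60. The counts of called members were less stable. With the share of cells above 0 in place of the level, 1 member was lower in Migratory cells labelled TGFβR-KO and 0 in those labelled TGFβR-WT, and 2 pairs of a member and a cluster were higher and 1 lower in TGFβR-KO and 6 lower in TGFβR-CA. With mean UMIs per cell, 1 member was higher in Migratory cells labelled TGFβR-WT and 1 in those labelled TGFβR-CA. With the mean of the log values, 1 was higher in TGFβR-WT, and 5 pairs were lower in TGFβR-KO. Without cells that had a marker of another lineage (266 cells), 4 members were lower in TGFβR-WT. With names from neighbours (657 cells renamed), 1 member was higher in TGFβR-WT, and 1 pair was lower in TGFβR-KO and 6 in TGFβR-CA. With the larger TGFβR-WT set alone, 1 member was higher and 4 lower in Migratory cells, and 9 pairs were lower in TGFβR-KO. With the smaller set alone, 5 pairs were higher in TGFβR-CA. The shares of all genes in these settings are not given here, so the counts show only how the calls moved and are not read against all genes. The cause of these shifts was not tested. Of the other values, 159 of the members' ratios moved little and 9 more than their counting error, the *Tcf7* and *Id2* ratios between conditions at equal weights moved in 11 of 40 settings, and the shares of all genes past the fold moved in 40 of 84 settings.

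No paired analysis was possible because the cells of TGFβR-WT, the only condition with 2 replicate numbers, could not be assigned to them, and the other conditions have 1 sample each. Leaving out a replicate was possible only for TGFβR-WT, as each name set alone, and the smaller set gave no Migratory value, with 16 cells. Names from neighbours gave no Migratory ratio in cells labelled TGFβR-CA. Intervals cover counting error only, the spread between mice is unknown, and low members such as *Id3* and *Bach2* were limited by their few UMIs.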

Other observations

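The lists of related genes were also counted between conditions within Migratory and TR-TFH cells. In Migratory cells labelled TGFβR-KO, 5 of 9 FOXO1 target genes were lower than in the larger TGFβR-WT set and 0 higher, beside 17.5% of all genes lower and the lower *Foxo1* level there. In TR-TFH cells labelled TGFβR-KO, 0 of 9 were lower and 1 was higher, where 7.8% of all genes were lower and 1.6% higher. *Foxo1* was not called there, yet it was at 0.667 and 0.552 times the larger and smaller sets, near the Migratory ratio of 0.587. Whether the target genes follow *Foxo1* was not tested. In Migratory cells labelled TGFβR-CA, 3 of 7 were lower and 1 higher, beside 18.5% and 10.5% of all genes, and *Foxo1* was not called there either. Of the stem-like and memory T cell genes, 5 of 13 were lower and 1 higher in Migratory cells labelled TGFβR-KO, and 4 of 7 were lower and 2 higher in those labelled TGFβR-CA, where 17.5% and 18.5% of all genes were lower and 11.3% and 10.5% higher. In TR-TFH cells, 2 of 16 were lower and 1 higher in those labelled TGFβR-KO, where 7.8% of all genes were lower and 1.6% higher, and 0 were lower and 1 higher in those labelled TGFβR-CA, where 3.89% were lower and 1.75% higher. The Migratory comparison rests on 73 TGFβR-WT cells.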
